A study of Mus musculus with 18 samples.

Results

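Genes of glycolysis and of the response to low oxygen were followed through the RNA-seq libraries of 2 mouse mammary tumour lines, 168FARN and 67NR. The set was a list of 39 symbols, matched by name and chosen with earlier results of these data known. Of these, 38 were present in the count tables of both lines, which share 24333 symbols. The tables write mouse symbols in capitals, so that SLC2A1, HK1 and HK2 are *Slc2a1*, *Hk1* and *Hk2* here. CA9 was the symbol not found. Its mouse gene is listed as *Car9* and was counted with a second list of related genes. After a filter on low counts, 34 of the 38 genes were tested in 168FARN and 35 in 67NR. *Eno1*, *Slc16a3* and *Epas1* did not pass in either line, nor *Aldoc* in 168FARN.

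Glycolysis splits glucose into pyruvate in the cytosol. Transporters let glucose in and lactate out, hexokinases trap the sugar, aldolases cut it, and lactate dehydrogenase turns pyruvate into lactate. When oxygen falls, the prolyl hydroxylases EGLN1 and EGLN3 stop marking HIF1A for VHL, which otherwise sends it to destruction, and HIF1A with its partner ARNT switches on many of the genes of this set. Because that control acts on the HIF1A protein, the RNA of *Hif1a* does not measure HIF activity.

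168FARN and 67NR are cell lines grown in culture. The groups of each line were WT cells, *Kmt2c* KO cells and *Kmt2d* KO cells, with 3 replicates each and 18 libraries in all. The knockouts were pools of cells sorted after transient transfection with Cas9-GFP and sgRNAs against exon 1 of *Kmt2c* or *Kmt2d*, 2 genes that encode histone methyltransferases of enhancers. The count columns of 168FARN WT are named as control sgRNA and those of 67NR WT only as WT. Replicates were collected at successive passages of a culture, so p-values measure the spread between passages and not between independently made lines. Total counts per library lay between 14359760 and 43427382 in 168FARN and between 40951775 and 79251530 in 67NR. Ribosomal *Rn45s* took 28.7% of the counts of 67NR *Kmt2d* KO replicate 3 and at most 4.96% of any other library. The counts of the targeted genes did not check the labels, since indels in exon 1 need not lower them. The paper itself reports mutant reads at the targeted regions and reduced protein by immunoblot in the knockouts of both lines. By its figures the share of mutant reads was lowest in 67NR *Kmt2c* KO, and was complete only in 168FARN *Kmt2d* KO. *Kmt2c* lay at 58.1, 64.7 and 55.7 CPM in 67NR WT and at 85.4, 92.2 and 82.9 CPM in 67NR *Kmt2c* KO. *Kmt2d* lay at 165, 163 and 106 CPM in 168FARN WT and at 299, 264 and 139 CPM in 168FARN *Kmt2d* KO.

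HIF binds DNA at short sites with the core ACGTG or GCGTG, and windows of promoters are shown for 3 genes that were higher and 2 that were lower in 67NR knockout cells. The windows are the 250 bases before the gene start in RefSeq on GRCm38.p6, written on the strand of the gene. Capitals mark each ACGTG or GCGTG and its reverse complement CACGT or CACGC. *Adm* lies at chr7:110627407-110627656 (+), *Egln3* at chr12:54203875-54204124 (-), *Pgk1* at chrX:106186850-106187099 (+), *Hk2* at chr6:82774455-82774704 (-) and *P4ha2* at chr11:54100674-54100923 (+). All 5 windows end at the base before exon 1.
Adm: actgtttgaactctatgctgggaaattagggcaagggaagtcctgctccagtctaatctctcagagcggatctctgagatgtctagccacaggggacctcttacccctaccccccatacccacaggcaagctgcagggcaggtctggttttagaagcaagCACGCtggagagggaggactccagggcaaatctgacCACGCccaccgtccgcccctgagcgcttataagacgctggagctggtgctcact
Egln3: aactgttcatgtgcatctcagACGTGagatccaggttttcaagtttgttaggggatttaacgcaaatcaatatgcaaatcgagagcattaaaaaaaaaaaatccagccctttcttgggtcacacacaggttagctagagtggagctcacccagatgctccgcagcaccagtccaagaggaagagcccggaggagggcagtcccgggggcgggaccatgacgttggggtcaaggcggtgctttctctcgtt
Pgk1: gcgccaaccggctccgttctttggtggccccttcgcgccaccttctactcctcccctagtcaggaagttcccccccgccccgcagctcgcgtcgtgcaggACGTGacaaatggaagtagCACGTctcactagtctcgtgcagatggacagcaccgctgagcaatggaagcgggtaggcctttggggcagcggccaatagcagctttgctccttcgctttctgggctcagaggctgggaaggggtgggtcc
Hk2: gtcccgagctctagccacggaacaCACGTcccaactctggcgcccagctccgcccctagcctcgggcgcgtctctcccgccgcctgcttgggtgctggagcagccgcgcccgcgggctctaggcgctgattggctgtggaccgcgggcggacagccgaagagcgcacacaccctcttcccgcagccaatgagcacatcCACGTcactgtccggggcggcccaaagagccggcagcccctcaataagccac
P4ha2: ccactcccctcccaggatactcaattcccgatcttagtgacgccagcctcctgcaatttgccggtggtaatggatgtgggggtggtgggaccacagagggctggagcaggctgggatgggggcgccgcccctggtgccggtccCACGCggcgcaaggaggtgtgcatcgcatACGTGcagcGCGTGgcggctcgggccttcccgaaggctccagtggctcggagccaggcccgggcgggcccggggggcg

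Genes on either side of the knockout comparison held the motif. *Adm*, *Pgk1* and *Hk2* had 2 matches each, *P4ha2* had 3 and *Egln3* had 1. Over the set, 31 of the 35 genes with an entry in the promoter table held at least 1 match in 1 of their windows, and 39 of their 49 windows (79.6%) did. Among all 32851 windows of the table the share was 38.6%. At least 2 matches were found in 49.0% of the set's windows and in 16.7% of all windows. A single CACGTG counted as 2 matches in these shares, since it matches on both strands. These are matches of letters and not measured binding, and *Ndrg1*, *Bnip3l* and *Epas1* had no entry.

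The cells of both lines used the common isoforms of the pathway. Levels between genes are given as CPM per kb of exon in mm9, as mean ± SD over 3 libraries. In 168FARN WT, *Gapdh*, the dehydrogenase of the middle of glycolysis, lay at 899 ± 445 and *Aldoa*, the ubiquitous aldolase, at 455 ± 119. Their ranges of mean ± SD overlapped, although *Gapdh* stood above *Aldoa* in each of the 3 libraries. *Ldha*, the lactate dehydrogenase subunit that favours lactate, lay at 256 ± 260, next to the phosphoglycerate kinase *Pgk1* at 253 ± 237. *Slc2a1*, the basal glucose transporter, followed at 68.9 ± 8.17. *Hk1* and *Hk2*, the hexokinases, lay at 15.6 ± 3.46 and 13.6 ± 1.91 and did not differ beyond their spread. In 67NR WT, *Gapdh* lay at 429 ± 282, *Aldoa* at 280 ± 141, *Ldha* at 131 ± 23.7 and *Pgk1* at 127 ± 2.14. *Hk2* at 35.5 ± 4.01 stood above *Hk1* at 11.6 ± 1.04 in this line, and *Slc2a1* lay at 27.7 ± 5.32.

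**Figure D1:**
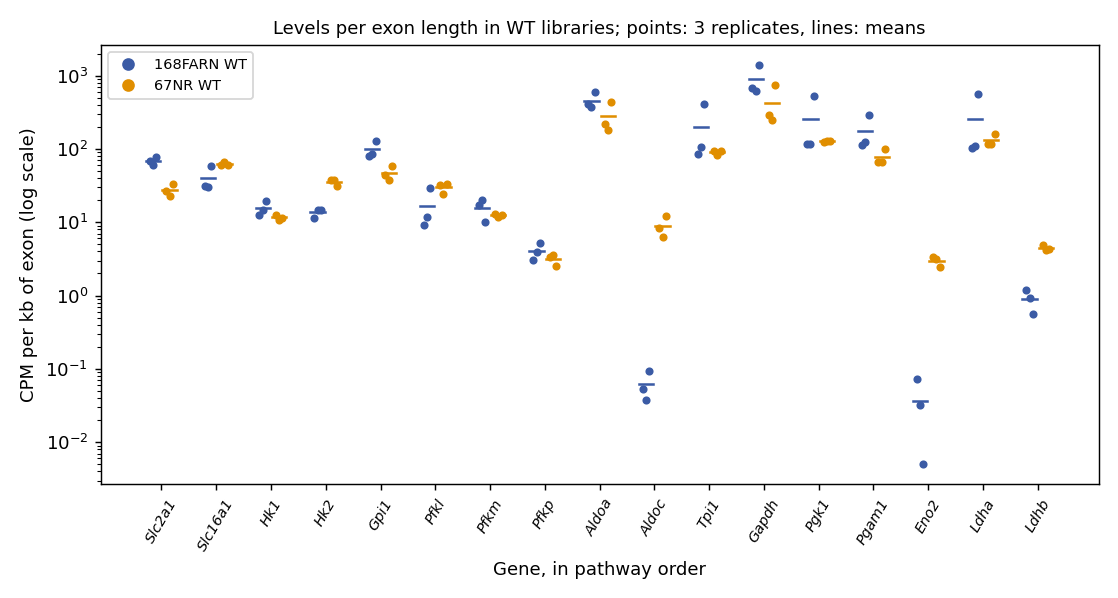
Level of transporters, glycolytic enzymes and lactate dehydrogenase subunits in WT libraries, in CPM per kb of exon on a log scale, with 3 points per line and a bar at the mean. *Aldoc* and *Eno2* lie below 0.1 CPM per kb in every 168FARN WT library and above 1 in every 67NR WT library.

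A few members were close to absent. *Epas1*, the second HIF alpha subunit, had 0 counts in 17 libraries and 2 counts in 67NR *Kmt2d* KO replicate 3. *Slc16a3*, a lactate exporter, had at most 17 counts in a library. *Eno1* was listed at 0 in all 18 libraries, while a near-identical copy, *Eno1b*, lay between 48.8 and 263 CPM, so reads of this enolase stood under the other name and cannot be told apart. *Gapdh*, *Pgk1*, *Ldha*, *Aldoa*, *Tpi1*, *Pkm* and *Pgam1* also have processed copies in the genome, and how reads shared with copies were counted is not given in the sources used here.

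The WT lines differed at 12 of 35 members, with 7 higher and 5 lower in 67NR, by edgeR's quasi-likelihood test where a call needed an adjusted p below 0.1 and a log2 fold change beyond 0.6 in either direction. Over all genes tested, 22.3% were higher and 16.9% lower. Genes higher in 67NR included a set of isoforms that 168FARN hardly used. *Aldoc*, the brain-type aldolase, lay at 27.3, 20.3 and 39.2 CPM in 67NR WT and at 0.171, 0.122 and 0.308 CPM in 168FARN WT (log2 7.12 ± 0.91 SE, adjusted p = 1.37e-05). *Eno2*, the neuronal enolase, lay at 15.9, 14.7 and 11.4 CPM against 0.342, 0.153 and 0.0237 CPM (log2 6.40 ± 0.71 SE, adjusted p = 3.53e-06). *Pfkfb3*, which makes the allosteric activator of phosphofructokinase, was higher by 3.67 on the log2 scale, and *Ldhb*, the heart-type lactate dehydrogenase subunit, by 2.34. *Hk2*, *P4ha2* and *Pfkfb4* were the other genes that were higher. *Adm*, which encodes the vasodilator peptide adrenomedullin, was the opposite case, with 34.4, 27.0 and 30.1 CPM in 168FARN WT and 3.25, 3.03 and 3.67 CPM in 67NR WT (log2 -3.20 ± 0.37 SE, adjusted p = 4.96e-06). *Slc2a1* was lower in 67NR by 1.32 ± 0.21 SE on the log2 scale (log2 -1.32, adjusted p = 1.38e-04), and *Gpi1*, *Bnip3* and *Ankrd37* were also lower. The call for *Bnip3* was lost without 168FARN WT replicate 3 or any 1 of the 67NR WT replicates, and that for *Ankrd37* without 67NR WT replicate 1 or 2. In the fit with a replicate block, 22 members were called, 12 higher and 10 lower, against 48.5% of all genes. Line cannot be told apart from when the libraries of each line were made.

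In 67NR, loss of *Kmt2c* moved 13 of the 35 members tested, 5 higher and 8 lower than WT. Over all genes tested, 17.9% were higher and 17.4% lower, so that the share of members that were higher was near the background. The median log2 fold change of the members was 0.03, against -0.02 for all genes. The set did not move one way: a secreted peptide, an oxygen sensor and the glucose transporter were higher, while several isoforms and kinases that steer the pathway were lower.

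The transporters went in opposite directions. *Slc2a1* lay at 76.8, 64.9 and 95.1 CPM in WT and at 122, 108 and 138 CPM in *Kmt2c* KO, without overlap (log2 0.72 ± 0.22 SE, adjusted p = 0.0317). This call was lost without WT replicate 2. *Slc16a1*, which carries lactate and pyruvate across the membrane, lay at 268, 293 and 265 CPM in WT and at 124, 136 and 158 CPM in *Kmt2c* KO (log2 -0.90 ± 0.13 SE, adjusted p = 8.80e-04).

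Of 14 glycolytic enzymes tested, 2 were higher and 3 lower, counts near the shares of all genes (17.9% and 17.4%). Those that were lower were *Hk2*, *Aldoc* and *Eno2*. *Pfkl* was not called, though its log2 ratios to the WT library of the same replicate number were -0.94, -0.95 and -0.44. *Hk2*, the inducible hexokinase, lay at 227, 224 and 184 CPM in WT and at 93.5, 85.5 and 83.2 CPM in *Kmt2c* KO (log2 -1.19 ± 0.17 SE, adjusted p = 7.79e-04). *Hk1*, the housekeeping hexokinase, had a log2 fold change of 0.55 ± 0.14 SE (adjusted p = 0.0167), under the fold threshold. *Aldoc* lay at 27.3, 20.3 and 39.2 CPM in WT and at 2.28, 1.80 and 8.08 CPM in *Kmt2c* KO (log2 -2.77 ± 0.74 SE, adjusted p = 0.0180), so every knockout library was below every WT library. *Aldoa* lay at 610, 493 and 1214 CPM and at 947, 860 and 1889 CPM, and overlapped. *Eno2* lay at 15.9, 14.7 and 11.4 CPM in WT and at 6.33, 5.18 and 4.25 CPM in *Kmt2c* KO (log2 -1.33 ± 0.23 SE, adjusted p = 0.00190). The enzymes that were higher were *Pgk1* (log2 1.19 ± 0.38 SE, adjusted p = 0.0386) and the isomerase *Gpi1* (log2 0.75 ± 0.25 SE, adjusted p = 0.0425). Both of these calls were lost without WT replicate 1, WT replicate 2 or *Kmt2c* KO replicate 3, and without the last the log2 fold change of *Pgk1* was 0.70. *Gapdh*, a frequent reference gene, was not called at 644, 557 and 1699 CPM in WT and 585, 502 and 1185 CPM in *Kmt2c* KO (log2 -0.27 ± 0.51 SE, adjusted p = 0.730).

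The lactate dehydrogenase subunits parted. *Ldhb* lay at 7.74, 6.58 and 6.87 CPM in WT and at 0.966, 0.856 and 1.27 CPM in *Kmt2c* KO, a 6.49-fold lower level (log2 -2.70 ± 0.26 SE, adjusted p = 6.63e-05). *Ldha* lay at 353, 344 and 470 CPM in WT and at 384, 370 and 912 CPM in *Kmt2c* KO (log2 0.59 ± 0.43 SE, adjusted p = 0.325). Thus *Ldhb* separated the groups at a low level, while the abundant *Ldha* stood out only in replicate 3.

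Kinases that set the flow of glycolysis were lower or not called. *Pfkfb3* lay at 51.5, 48.6 and 21.1 CPM in WT and at 18.6, 14.4 and 7.07 CPM in *Kmt2c* KO (log2 -1.51 ± 0.52 SE, adjusted p = 0.0492). *Pdk1*, which shuts pyruvate dehydrogenase, lay at 52.3, 57.2 and 44.1 CPM and at 14.1, 15.1 and 40.3 CPM (log2 -1.07 ± 0.45 SE, adjusted p = 0.0976). Both calls held in 2 of the 6 fits with 1 library left out. That for *Pfkfb3* was lost without WT replicate 1 or 2 or *Kmt2c* KO replicate 2 or 3, and that for *Pdk1* without replicate 1 or 2 of either group. The log2 fold change of *Pdk1* was -1.72 without *Kmt2c* KO replicate 3.

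Among the oxygen sensors and other hypoxia targets, 2 genes were higher and 1 lower of 11 tested. *Adm* lay at 3.25, 3.03 and 3.67 CPM in WT and at 17.4, 18.1 and 48.2 CPM in *Kmt2c* KO, an 8.89-fold higher level (log2 3.15 ± 0.43 SE, adjusted p = 5.56e-04). *Egln3*, a prolyl hydroxylase that is itself induced by HIF, lay at 51.3, 61.5 and 36.2 CPM and at 86.9, 87.9 and 168 CPM (log2 1.28 ± 0.36 SE, adjusted p = 0.0216). Neither gene's groups overlapped, and in both the highest library was replicate 3 of the knockout. *P4ha2*, a collagen prolyl hydroxylase, was lower, at 31.5, 29.1 and 16.3 CPM in WT and 9.19, 7.87 and 7.49 CPM in *Kmt2c* KO (log2 -1.56 ± 0.25 SE, adjusted p = 0.00127). *Egln1*, *Bnip3*, *Bnip3l*, *Vegfa*, *Ndrg1*, *P4ha1*, *Ankrd37* and *Ddit4* were not called, with log2 fold changes between -0.34 and 0.93.

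HIF itself was not called. *Hif1a* lay at 532, 554 and 187 CPM in 67NR WT and at 299, 372 and 311 CPM in *Kmt2c* KO (log2 -0.29 ± 0.37 SE, adjusted p = 0.603). *Arnt* lay at 66.8, 71.3 and 60.5 CPM in WT and at 69.2, 73.1 and 59.0 CPM in *Kmt2c* KO (log2 0.10 ± 0.15 SE, adjusted p = 0.634). *Vhl* lay at 24.2, 27.6 and 12.0 CPM and at 20.9, 23.7 and 19.6 CPM (log2 0.09 ± 0.30 SE, adjusted p = 0.849). *Hif1a* and *Vhl* were lowest in WT replicate 3, whereas *Arnt* was nearly level. Across the set, 8 members were called without WT replicate 2 in place of 13, and 31.0% of all genes in place of 35.3%. In the fit with a replicate block, 16 were called, and 41.3% of all genes. The block added *Pfkl*, *Aldoa* and *Ndrg1*.

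**Figure D2:**
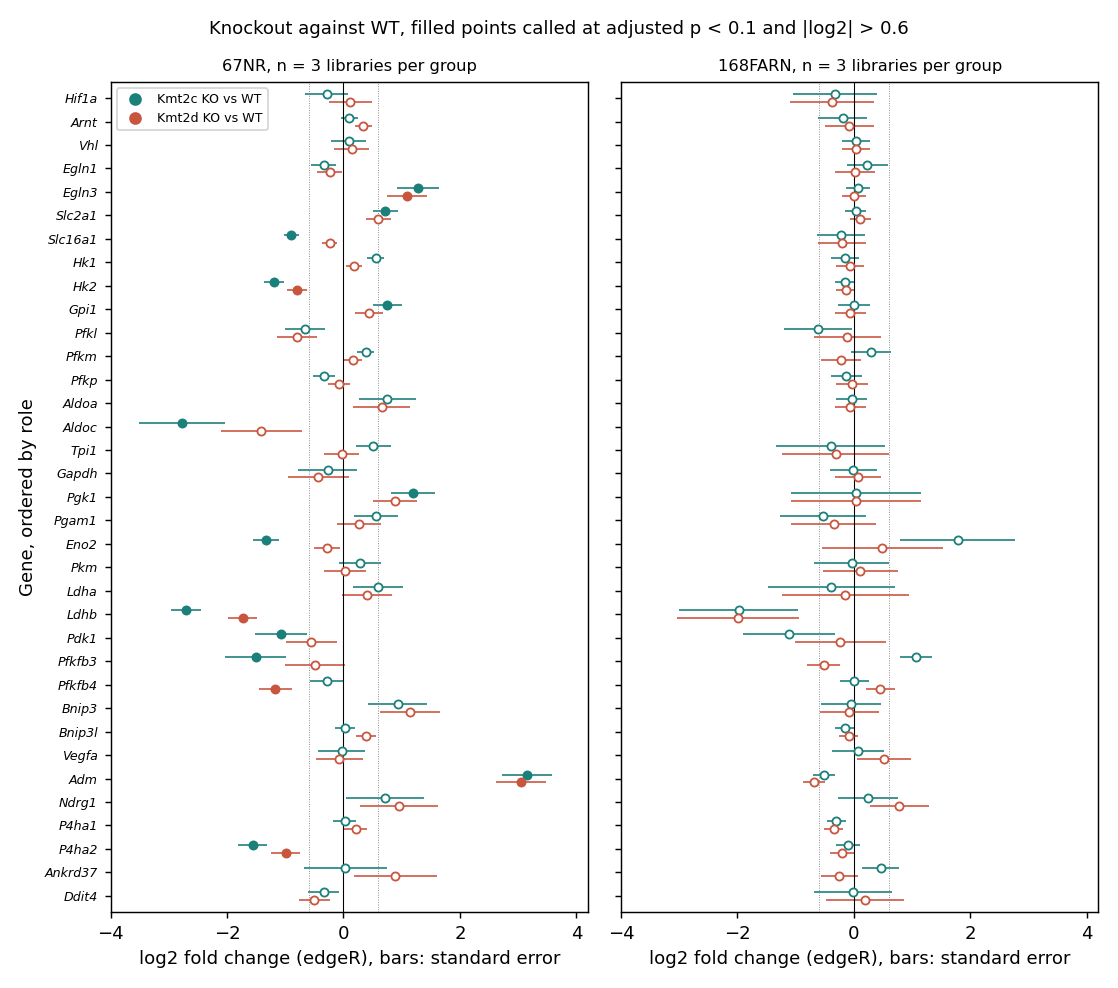
Log2 fold change of each knockout against WT by edgeR, with bars for the standard error, in 67NR on the left and 168FARN on the right, for n = 3 libraries per group. Filled points were called, and dotted lines mark the fold threshold of 0.6. *Adm* lies at 3.15 and 3.05 in the 67NR knockouts and to the left of 0 in both 168FARN knockouts, where no point is filled.

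Loss of *Kmt2d* in 67NR moved 6 of 35 members, 2 higher and 4 lower. Over all genes tested, 13.9% were higher and 11.6% lower, and the members' median was 0.12 against -0.02 for all genes. *Adm* lay at 21.6, 20.1 and 36.4 CPM against 3.25, 3.03 and 3.67 CPM in WT (log2 3.05 ± 0.43 SE, adjusted p = 0.00114). *Egln3* lay at 79.2, 73.8 and 149 CPM (log2 1.09 ± 0.35 SE, adjusted p = 0.0545). These are the 2 genes that were higher. The call for *Egln3* was lost without replicate 1 or 3 of WT or replicate 3 of *Kmt2d* KO, the last of which left a log2 fold change of 0.72.

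*Hk2*, *Ldhb*, *P4ha2* and *Pfkfb4* were lower in *Kmt2d* KO. *Hk2* lay at 127, 128 and 91.2 CPM (log2 -0.80 ± 0.17 SE, adjusted p = 0.0101). *Ldhb* lay at 2.25, 1.95 and 1.86 CPM (log2 -1.73 ± 0.25 SE, adjusted p = 0.00127), and *P4ha2* at 12.0, 12.6 and 12.2 CPM (log2 -0.99 ± 0.25 SE, adjusted p = 0.0190). In all 3 genes every knockout library was below every WT library. *Pfkfb4*, a sister enzyme of *Pfkfb3*, lay at 14.0, 14.5 and 10.4 CPM in WT and at 4.26, 4.23 and 7.93 CPM in *Kmt2d* KO (log2 -1.17 ± 0.28 SE, adjusted p = 0.0164). *Slc2a1* lay at 95.4, 96.3 and 149 CPM, above every WT library but not past the threshold on fold (log2 0.60 ± 0.22 SE, adjusted p = 0.0814). *Aldoc* lay at 4.69, 5.26 and 21.2 CPM, with 1 library inside the WT range (log2 -1.41 ± 0.70 SE, adjusted p = 0.190).

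The remaining genes given in full were not called in *Kmt2d* KO. *Pfkfb3* lay at 33.9, 36.1 and 11.8 CPM (log2 -0.49 ± 0.51 SE, adjusted p = 0.554), and *Eno2* at 10.7, 12.5 and 9.46 CPM (log2 -0.28 ± 0.22 SE, adjusted p = 0.415). *Gapdh* lay at 451, 530 and 1066 CPM (log2 -0.43 ± 0.52 SE, adjusted p = 0.612). Each of these 3 overlapped with WT. *Ldha* lay at 365, 315 and 785 CPM (log2 0.40 ± 0.43 SE, adjusted p = 0.564), and *Hif1a* at 537, 464 and 311 CPM (log2 0.12 ± 0.37 SE, adjusted p = 0.860). *Arnt* lay at 83.3, 82.5 and 72.6 CPM, above the WT libraries (log2 0.34 ± 0.15 SE, adjusted p = 0.128). *Vhl* lay at 27.1, 22.1 and 17.5 CPM (log2 0.14 ± 0.30 SE, adjusted p = 0.789). In the fit with a replicate block, 13 members were called, 7 higher and 6 lower, against 32.7% of all genes. The block added *Pfkl* and *Aldoc* as lower and *Aldoa*, *Pgk1*, *Bnip3*, *Ndrg1* and *Ankrd37* as higher. Both knockouts were compared with the same WT libraries, so their calls are not independent of each other.

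Compared directly, *Kmt2d* KO and *Kmt2c* KO of 67NR differed at 2 of 35 members, with 1.41% of all genes called. *Eno2* was higher in *Kmt2d* KO (log2 1.04 ± 0.23 SE, adjusted p = 0.0903), as was *Slc16a1* (log2 0.66 ± 0.13 SE, adjusted p = 0.0742). No other member passed, including *Pfkfb3* (log2 1.02 ± 0.51 SE, adjusted p = 0.524) and *Pfkfb4* (log2 -0.88 ± 0.28 SE, adjusted p = 0.270). Leaving out any 1 *Kmt2c* KO library, or *Kmt2d* KO replicate 1 or 2, left 0 members called, and 0.302% to 0.651% of all genes. With the block 7 members were called, 6 higher and 1 lower, against 7.29% of all genes.

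**Figure D3:**
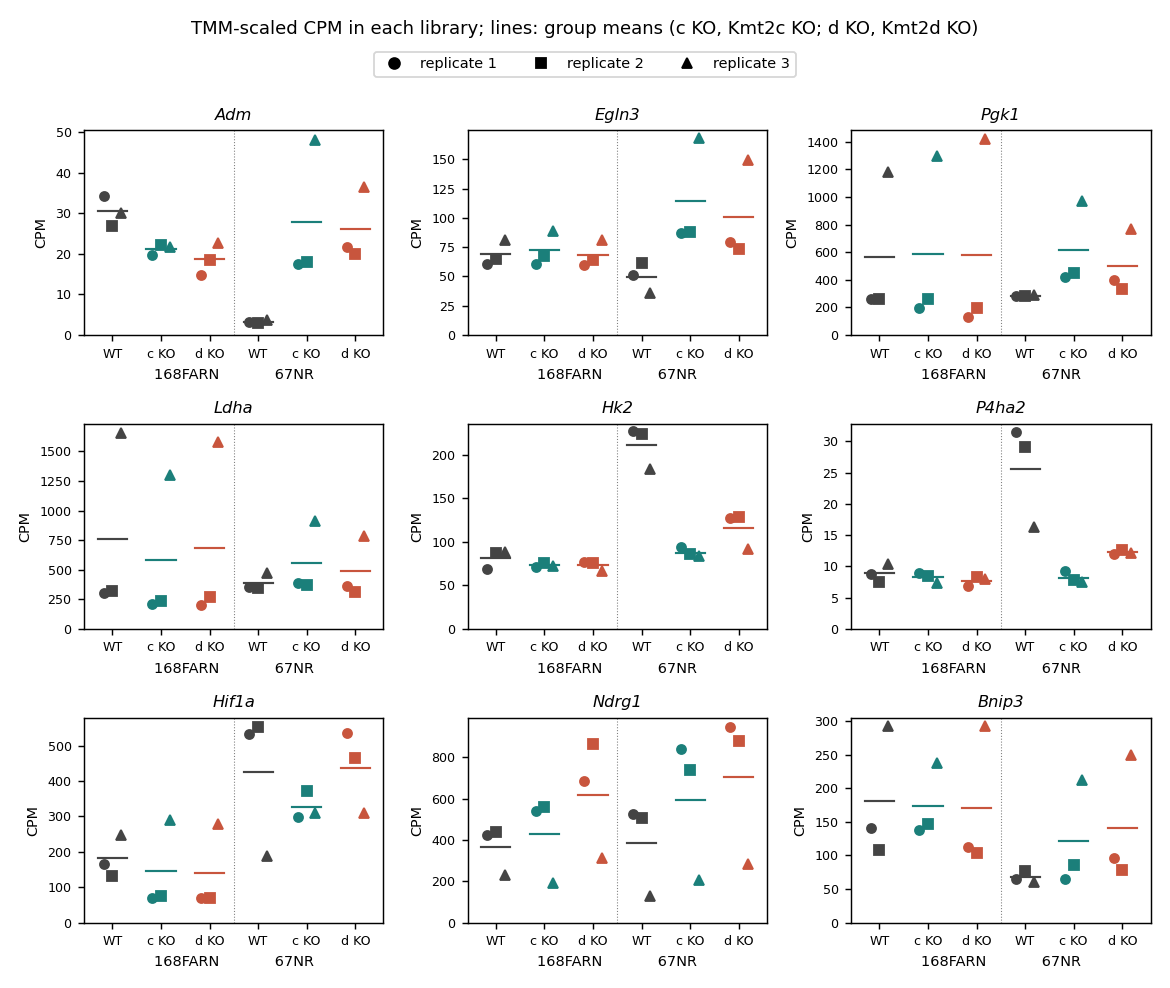
TMM-scaled CPM of 9 genes in each of the 18 libraries, with circles, squares and triangles for replicates 1, 2 and 3 and lines at the group means. *Adm* is below 4 CPM in all 67NR WT libraries and between 17.4 and 48.2 CPM in the 6 knockout libraries, and the triangles stand apart for *Pgk1* and *Ldha* in 168FARN and for *Ndrg1* in both lines.

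In 168FARN the larger division was by replicate. All 3 replicate 3 libraries, 1 of each genotype, lay outside the range of the other 6 for 22 of 34 members, 17 above and 5 below. Over all genes tested, 28.1% lay above and 27.8% below. No p is given for this division, since replicate 3 was singled out with earlier results known. The median log2 difference of replicate 3 from replicates 1 and 2 was 0.36 for the members and -0.01 for all genes. Of 13 glycolytic enzymes, 9 lay above and 1, *Pfkm*, below. Some markers of other cell types also lay outside the range in replicate 3, as did 55.9% of all genes tested. *Cd68*, a macrophage lysosomal marker and the 1 leukocyte marker tested, lay between 2.84 and 5.37 CPM in replicate 3. It lay between 72.1 and 93.2 CPM in the others (log2 -4.32 ± 0.19 SE). The keratin *Krt8* was above (log2 1.67 ± 0.09 SE). The mesenchymal genes *Fn1* (log2 -2.09 ± 0.12 SE) and *Pdgfrb* (log2 -1.50 ± 0.14 SE) were below, while *Sparc* (log2 0.88 ± 0.11 SE) and *Cdh2* (log2 0.85 ± 0.11 SE) were above. Of 10 mesenchymal markers, 2 lay above and 4 below, and of 3 epithelial markers tested, 1 lay above. Their part in the result was not tested.

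*Pgk1*, *Ldha* and *Tpi1* had the largest differences among the members. *Pgk1* lay at 1180, 1297 and 1417 CPM in replicate 3 of WT, *Kmt2c* KO and *Kmt2d* KO, and between 128 and 261 CPM in the other 6 libraries (log2 2.64 ± 0.16 SE). *Ldha* lay between 1302 and 1657 CPM in replicate 3 and between 199 and 323 CPM elsewhere (log2 2.57 ± 0.10 SE). *Tpi1*, triose phosphate isomerase, lay between 682 and 912 CPM against 127 to 233 CPM (log2 2.16 ± 0.10 SE). In each of these genes the 3 genotypes shared one range in replicate 3, well apart from the other libraries. *Pgam1*, phosphoglycerate mutase, differed by 1.69 ± 0.12 SE and *Pdk1* by 1.82 ± 0.13 SE on the log2 scale. *Gapdh* lay at 1506, 1388 and 3180 CPM in WT, while *Kmt2c* KO had 1951, 1827 and 2240 CPM and *Kmt2d* KO 1515, 1705 and 3100 CPM (log2 0.80 ± 0.15 SE), so its replicate 3 libraries were also the highest. Both prolyl hydroxylases of HIF were above, *Egln1* by 0.76 ± 0.11 SE and *Egln3* by 0.42 ± 0.08 SE on the log2 scale. Of 55 tested genes of the second list, 17 lay above, *Car9* among them (log2 1.47 ± 0.16 SE), and 12 below. The 9 members listed under other hypoxia targets did not follow as a group, with 1 above and 3 below. *Bnip3*, a mitophagy receptor, was above (log2 1.15 ± 0.12 SE), while *Vegfa*, *Ndrg1* and *Ddit4* were below. *Ddit4*, a brake on mTORC1, lay between 41.2 and 84.4 CPM in replicate 3 and between 171 and 217 CPM elsewhere (log2 -1.70 ± 0.20 SE).

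*Hif1a* followed replicate 3 as well. It lay at 166, 132 and 248 CPM in WT, while *Kmt2c* KO had 70.1, 75.7 and 290 CPM and *Kmt2d* KO 69.0, 70.8 and 278 CPM (log2 1.62 ± 0.21 SE for replicate 3). Its partner *Arnt* went the other way, at 83.8, 74.2 and 40.2 CPM, 71.5, 67.9 and 33.5 CPM, and 80.7, 69.5 and 34.7 CPM in the same groups (log2 -1.04 ± 0.09 SE). *Vhl* lay at 18.4, 18.2 and 28.6 CPM, 21.6, 21.7 and 23.5 CPM, and 20.4, 17.9 and 27.4 CPM (log2 0.43 ± 0.11 SE). The levels of *Slc2a1* did not part by replicate, at 195, 174 and 220 CPM, 220, 220 and 162 CPM, and 208, 233 and 191 CPM.

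**Figure D4:**
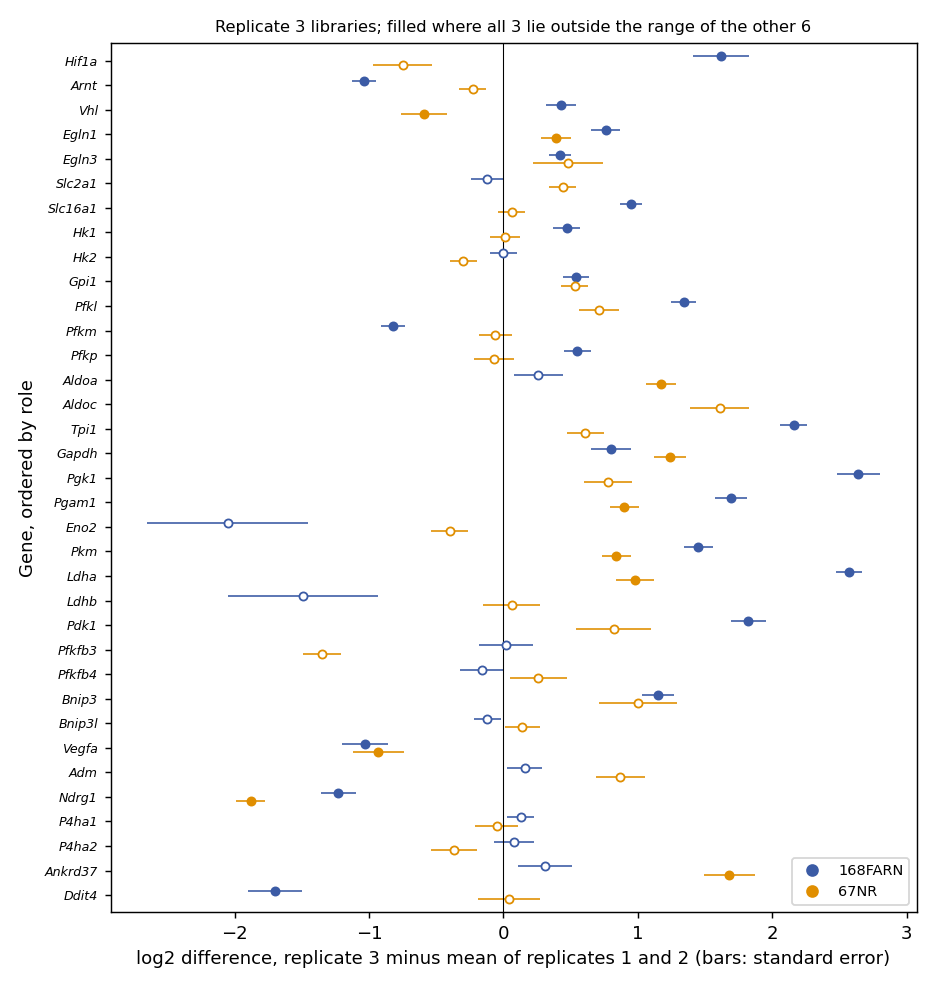
Log2 difference of the replicate 3 libraries from the mean of replicates 1 and 2 in each line, with bars for the standard error. Filled points mark genes whose 3 replicate 3 libraries lie outside the range of the other 6, which are 22 of 34 in 168FARN and 10 of 35 in 67NR.

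In 67NR, replicate 3 stood apart at fewer members. Its 3 libraries lay outside the range of the other 6 for 10 of 35 members, 7 above and 3 below, while 12.4% of all genes lay above and 11.4% below. Leaving out the WT libraries raised this to 22 members, and the share of all genes outside the range from 23.8% to 49.3%. The median difference was 0.26 for the members and -0.02 for all genes. *Gapdh*, at 1.24 ± 0.12 SE, *Aldoa*, at 1.17 ± 0.11 SE, and *Ldha*, at 0.98 ± 0.14 SE, were above on the log2 scale. *Ankrd37*, an ankyrin repeat gene induced by HIF, was above by 1.68 ± 0.19 SE. *Ndrg1*, a stress-induced gene, lay at 128, 208 and 282 CPM in replicate 3 and between 507 and 949 CPM elsewhere (log2 -1.88 ± 0.11 SE). *Vegfa*, the main angiogenic growth factor, lay at 86.2, 144 and 150 CPM against 206 to 279 CPM (log2 -0.93 ± 0.19 SE, and -0.58 without the WT libraries). *Ndrg1* and *Vegfa* were thus low in replicate 3 of both lines, and *Hif1a* was high there in 168FARN and not in 67NR.

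**Figure D5:**
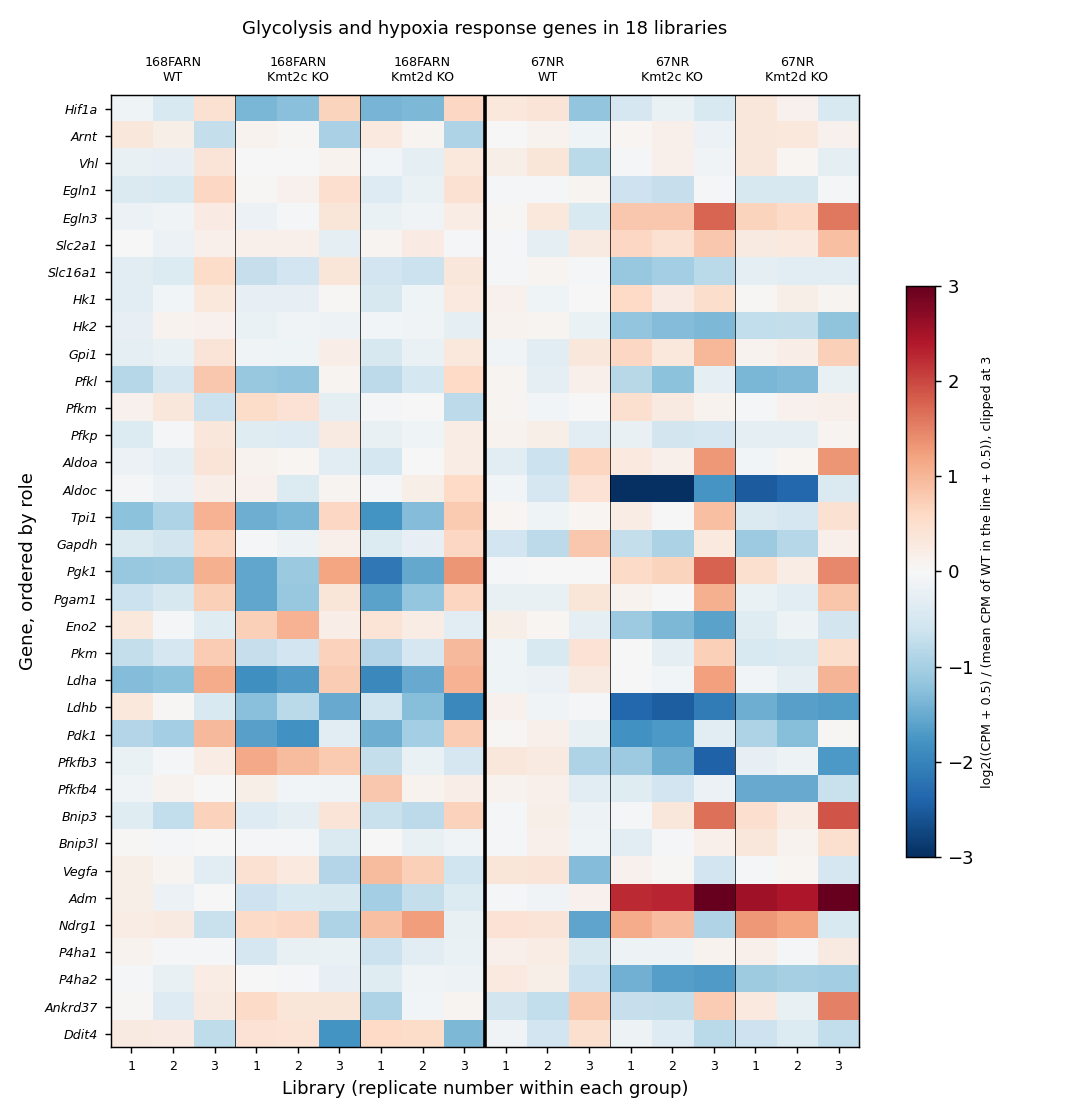
Each library's CPM of 35 genes as log2 against the mean CPM of the WT libraries of its line, with 0.5 added to both and colours clipped at 3. Columns are libraries by group and replicate number, and rows are genes by role. Replicate 3 columns of 168FARN are alike across genotypes, and *Adm* is red in all 6 knockout columns of 67NR.

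The knockout ratio itself varied with the replicate number in 67NR. Each *Kmt2c* KO library was set against the WT library of the same number, for 34 members with at least 1 CPM. The log2 ratio had the same sign in all 3 numbers for 25 members, 14 higher and 11 lower, and was highest in replicate 3 for 24 of the 34. Over all genes with at least 1 CPM, 70.2% kept their sign and 43.7% were highest in replicate 3. For *Kmt2d* KO it kept its sign for 21 of 35 members, 10 higher and 11 lower, and was highest in replicate 3 for 23, against 63.2% and 37.0% of all genes. In 168FARN the *Kmt2c* KO ratio was highest in replicate 3 for 6 of 32 members and lowest for 19, against 45.6% and 38.9% of all genes. The *Kmt2d* KO ratio of 168FARN was highest there for 12 of 32 and lowest for 13, against 41.9% and 34.2%. *Adm* had ratios of 2.42, 2.58 and 3.71 in *Kmt2c* KO and 2.74, 2.73 and 3.31 in *Kmt2d* KO, so that it was higher at every number. *Hk2* was lower at every number, with -1.28, -1.39 and -1.15 in *Kmt2c* KO and -0.83, -0.81 and -1.02 in *Kmt2d* KO. *Bnip3* had ratios of 0.00, 0.16 and 1.83 in *Kmt2c* KO and 0.55, 0.04 and 2.06 in *Kmt2d* KO. *Egln3* had 0.76, 0.52 and 2.21 in *Kmt2c* KO, and *Hif1a* had -0.83, -0.58 and 0.73. Replicate 3 therefore carried most of the difference for *Bnip3* and *Egln3*, and turned its direction for *Hif1a*. From replicates 1 and 2 alone, the log2 fold change of *Egln3* was 0.71 for *Kmt2c* KO and 0.52 for *Kmt2d* KO, that of *Pgk1* 0.71 in *Kmt2c* KO, and that of *Pdk1* -1.83 in *Kmt2c* KO.

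In 168FARN no member was called in either knockout. Of all genes tested, 0.359% were called for *Kmt2c* KO and 0.286% for *Kmt2d* KO, and 0.253% between the knockouts. Among the 34 members, 2 had an unadjusted p under 0.05 for *Kmt2c* KO, 1 for *Kmt2d* KO and 1 between the knockouts, and DESeq2 called 1 in each comparison, and 278, 229 and 221 of all genes. The members' median was -0.05 for *Kmt2c* KO and -0.08 for *Kmt2d* KO, against 0.01 for all genes. *Hif1a* had log2 fold changes of -0.33 ± 0.72 SE and -0.37 ± 0.72 SE, and *Ldha* of -0.39 ± 1.09 SE and -0.15 ± 1.09 SE, with the spread set by replicate 3. *Gapdh* had -0.01 ± 0.40 SE and 0.07 ± 0.40 SE, and *Slc2a1* 0.03 ± 0.18 SE and 0.11 ± 0.18 SE. *Arnt* had -0.19 ± 0.42 SE and -0.08 ± 0.42 SE, and *Vhl* 0.04 ± 0.24 SE and 0.03 ± 0.24 SE. The adjusted p of each was 1.000.

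With the replicate block, 5 members were called for *Kmt2c* KO in 168FARN, 3 for *Kmt2d* KO and 3 between the knockouts. The block called 7.23%, 5.90% and 5.33% of all genes in these comparisons. *Ldhb* was lower in both knockouts (log2 -2.02 and -2.17), at 1.88, 1.44 and 0.875 CPM in WT and at most 0.745 CPM in any knockout library. *Pgam1* and *Pdk1* were lower and *Eno2* and *Pfkfb3* higher in *Kmt2c* KO. *Pfkfb3* lay at 2.70, 3.06 and 3.76 CPM in WT, while *Kmt2c* KO had 7.58, 6.54 and 5.82 CPM and *Kmt2d* KO 1.75, 2.72 and 2.11 CPM, and the block gave log2 1.07 ± 0.22 SE for *Kmt2c* KO (adjusted p = 0.0112 by edgeR). *Adm* was lower in *Kmt2d* KO (log2 -0.70, adjusted p = 0.0162 with the block) at 14.9, 18.5 and 22.7 CPM, below all 3 WT libraries, and *Ndrg1* was higher. From replicates 1 and 2 alone, *Hif1a* was called lower in *Kmt2c* KO (log2 -1.02) and *Kmt2d* KO (log2 -1.06) of 168FARN and in *Kmt2c* KO of 67NR (log2 -0.61). These fits called 14.5%, 11.0% and 44.2% of all genes. In replicate 3 *Hif1a* went the other way, with log2 ratios to WT of 0.23, 0.17 and 0.73 in these groups.

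Whether a knockout acted differently on a member in the lines was tested as an interaction over all 18 libraries. For *Kmt2c* KO, 5 of 35 members differed, 1 higher and 4 lower in 67NR relative to 168FARN, against 16.0% of all genes. The effect on *Adm* differed by 3.60 ± 0.49 SE on the log2 scale (adjusted p = 1.29e-04). *Adm* was higher in all 6 knockout libraries of 67NR than in WT and lower in all 6 of 168FARN. *Eno2* (log2 -3.23 ± 0.86 SE, adjusted p = 0.0222), *Pfkfb3* (log2 -2.66 ± 0.61 SE, adjusted p = 0.00869), *P4ha2* (log2 -1.54 ± 0.33 SE, adjusted p = 0.00520) and *Hk2* (log2 -1.12 ± 0.23 SE, adjusted p = 0.00431) were the others. *Eno2* had at most 33 counts in a 168FARN library. For *Kmt2d* KO, 3 members differed, 1 higher and 2 lower, against 10.6% of all genes. *Adm* differed by 3.68 ± 0.49 SE (adjusted p = 1.57e-04), *Pfkfb4* by -1.68 ± 0.40 SE (adjusted p = 0.0149) and *Hk2* by -0.72 ± 0.23 SE (adjusted p = 0.0775). The last held in 3 of 12 fits with 1 library left out. It was lost without any 1 of the 168FARN WT libraries, replicate 1 or 2 of 168FARN *Kmt2d* KO, replicate 1 or 2 of 67NR WT, or replicate 1 or 3 of 67NR *Kmt2d* KO. With the block, 17 and 11 members differed, against 34.6% and 28.4% of all genes.

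A second list of 74 related genes, written from general knowledge with earlier results of these data known, covered other genes of the pathway. In 67NR *Kmt2c* KO, 9 of its 57 tested genes were higher and 11 lower, with a median of -0.12. In 67NR *Kmt2d* KO, 6 were higher and 7 lower, with a median of -0.12 as well. These counts lay near the shares of all genes in *Kmt2c* KO, 17.9% higher and 17.4% lower, and near or below those in *Kmt2d* KO, 13.9% and 11.6%. *Pdp1*, the phosphatase that reactivates pyruvate dehydrogenase and so opposes PDK1, lay at 25.6, 30.6 and 23.2 CPM in WT, while *Kmt2c* KO had 71.9, 94.6 and 104 CPM and *Kmt2d* KO 79.7, 68.7 and 83.7 CPM (log2 1.85 ± 0.18 SE and 1.62 ± 0.18 SE). *Bhlhe40*, a transcriptional repressor induced by HIF, lay at 148, 150 and 180 CPM in WT, while *Kmt2c* KO had 31.4, 28.6 and 36.9 CPM and *Kmt2d* KO 48.2, 47.4 and 48.8 CPM (log2 -2.22 ± 0.15 SE and -1.65 ± 0.15 SE). *Zfp395* was lower by 2.27 and 1.53 on the log2 scale (log2 -2.27 and -1.53). *Arnt2*, a paralogue of *Arnt*, had 2, 4 and 2 counts in WT, 224, 178 and 104 in *Kmt2c* KO and 88, 66 and 58 in *Kmt2d* KO. In these 4 genes no knockout library reached into the WT range. *Car9*, the hypoxia-induced carbonic anhydrase, lay at 27.1, 23.3 and 34.9 CPM in WT, while *Kmt2c* KO had 7.12, 6.80 and 21.5 CPM and *Kmt2d* KO 10.2, 12.0 and 41.9 CPM, and was not called. In 168FARN, *Hmox1*, heme oxygenase 1, was the single gene of 55 called, and only in *Kmt2c* KO (log2 -0.76 ± 0.13 SE, adjusted p = 0.0945). It lay at 142, 151 and 128 CPM in WT and at 80.5, 81.4 and 86.0 CPM in *Kmt2c* KO, and the call was lost without any 1 of these 6 libraries.

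Other programmes moved in the same libraries. In 67NR, 10 of 10 epithelial markers were lower in *Kmt2c* KO and 8 of 10 in *Kmt2d* KO, and 7 of 10 mesenchymal markers were higher and 1 lower in each. Over all genes tested, 17.9% were higher and 17.4% lower in *Kmt2c* KO, and 13.9% and 11.6% in *Kmt2d* KO. The summed level of the epithelial markers lay between 3684 and 5635 CPM for WT, 705 and 1104 CPM for *Kmt2c* KO and 1206 and 2229 CPM for *Kmt2d* KO. That of the mesenchymal markers lay between 3620 and 6412, 5021 and 7076, and 4597 and 6739 CPM. Of the leukocyte, endothelial and erythroid markers, *Ptprc* and *Cd3e* had at most 4 counts in a library and *Emcn*, *Hbb-b1* and *Hba-a1* had 0. The 5 endothelial markers summed to between 0.856 and 1.28 CPM in 168FARN WT, 4.76 and 5.37 in *Kmt2c* KO and 0.644 and 1.05 in *Kmt2d* KO, and to between 0.413 and 0.735, 1.45 and 2.15, and 0.867 and 1.51 CPM in the same groups of 67NR. The 6 leukocyte markers, nearly all *Cd68*, summed to between 22.0 and 36.9 CPM in 67NR WT, 18.8 and 68.5 in *Kmt2c* KO and 25.3 and 79.0 in *Kmt2d* KO. *Cdh5*, VE-cadherin, was called higher in *Kmt2c* KO of 168FARN (log2 2.61 ± 0.39 SE) and in *Kmt2c* KO (log2 2.60 ± 0.53 SE) and *Kmt2d* KO (log2 1.75 ± 0.52 SE) of 67NR. In 168FARN, *Epcam*, *Cldn3* and *Cldn4* had 0 counts in every library, and *Cdh1*, *Krt18* and *Krt19* were at or below 0.188 CPM, while *Krt8* lay between 98.7 and 397 CPM. Genes of the ATF4 stress response, of which *Ddit4* and *Vegfa* are also known members, went with replicate 3. Of 18 tested in 67NR, 12 lay below the range of the other libraries and 0 above in replicate 3, with a median log2 difference of -1.83, and in 168FARN 9 of 17 lay below and 2 above, with a median of -0.91. Of all genes tested, 11.4% lay below and 12.4% above in 67NR, and 27.8% and 28.1% in 168FARN. In the knockout comparisons of 67NR, 4 of the 18 were lower in *Kmt2c* KO and 2 in *Kmt2d* KO, against 17.4% and 11.6% of all genes. The part of these programmes in the values of the glycolysis and hypoxia genes was not tested.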

How the data were processed

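Gene expression was measured by strand-specific mRNA-seq in 18 libraries of 168FARN and 67NR cells, with 3 replicates per line and genotype. The authors ran STAR on mm9 through the VIPER pipeline and deposited a table of raw counts per gene symbol for each line. The strand setting and the gene annotation of the counting are not given in the sources used here. Samples were grouped by the deposited labels.

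Counts were scaled by TMM, filtered by genotype with filterByExpr, and tested by edgeR's robust quasi-likelihood test (edgeR 4.0.16, R 4.3.3) on the 9 libraries of a line, or on all 18 for comparisons across lines. P-values were adjusted by Benjamini-Hochberg over all 12253 genes tested in 168FARN, 13665 in 67NR and 13882 across lines. Calls needed an adjusted p below 0.1 and a log2 fold change beyond 0.6 in either direction. CPM in the text share one TMM scaling over 18 libraries, and exon lengths came from the GENCODE annotation of mm9. The filter can remove genes near 0, and DESeq2 1.42.0 was an alternative.

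Replicates were collected one after another, and the authors took collection time as a batch. That one number marks the same collection in each genotype is not stated. Deviations of same-numbered libraries from the group means correlated at 0.351 or more in every pair, and those of libraries with different numbers between -0.825 and 0.728, so the correlations also hold the separation of replicate 3. A fit with the replicate number as a block was made on this basis. The alternatives were other size factors, total counts, no filter, a stricter threshold, the block, fits on the 6 libraries compared, DESeq2 and leaving out each library. A fit without *Rn45s* and one on replicates 1 and 2 only were added after seeing the data. Replicates differed beyond sampling noise, with a chi-square per degree of freedom of at least 12.0.

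The members and lists were chosen with earlier results of these data known. Given in full were 7 genes whatever their values (*Hif1a*, *Epas1*, *Arnt*, *Vhl*, *Slc2a1*, *Gapdh* and *Ldha*), and in each line up to 8 called members with the largest fold change and no overlap between knockout and WT. For replicate 3, up to 6 members per line with the largest difference were described, and from the second list up to 2 called genes in each direction with the smallest p. Other members were named by role. On simulated counts for 67NR *Kmt2c* KO against WT over 13665 genes, the test recovered 25.9% of genes changed by 2-fold and 92.4% of those changed by 4-fold, with 14 false calls (32.3%, 90.7% and 3 with the block). For 168FARN *Kmt2c* KO against WT, over 12253 genes, it recovered 8.6% and 69.5% with 4 false calls, and with the block 1.0% and 61.0% with 8. The simulated counts held no shift shared by libraries of the same replicate number, which is what the block takes out. The simulated figures with the block therefore do not show how it performs on the real counts of either line.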

Additional observations from a re-analysis of the deposited data

Results flagged for a closer look

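The effect of a knockout differed between the lines, by the interaction test of edgeR over 18 libraries, for 5 of 35 members with *Kmt2c* KO and 3 with *Kmt2d* KO, while 16.0% and 10.6% of all genes did. Each value is the log2 fold change in 67NR minus that in 168FARN. For *Kmt2c* KO it was 3.60 for *Adm*, -1.12 for *Hk2*, -3.23 for *Eno2*, -2.66 for *Pfkfb3* and -1.54 for *P4ha2*. For *Kmt2d* KO it was 3.68 for *Adm*, -1.68 for *Pfkfb4* and -0.72 for *Hk2*. All were called in 12 of 12 fits with 1 library left out except *Hk2* in *Kmt2d* KO, which was called in 3. The lines differed in these genes before any knockout: *Adm* was lower and *Hk2*, *Eno2*, *Pfkfb3*, *Pfkfb4* and *P4ha2* were higher in 67NR WT than in 168FARN WT.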

How the results depend on the processing

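The count of members called depended on the fit more than its direction did. Of the log2 fold changes recomputed under the alternatives, 1686 kept their side of the threshold, 54 crossed it to be called, 61 lost the call and 0 of those called changed sign. In 168FARN, where 0 members were called, the replicate block called 5 for *Kmt2c* KO, 3 for *Kmt2d* KO and 3 between the knockouts, DESeq2 called 1 in each, and replicates 1 and 2 alone gave 7, 7 and 2, against 14.5%, 11.0% and 9.29% of all genes. In 67NR, *Kmt2c* KO had 13 calls (35.3% of all genes) and 8 to 15 with 1 library left out (30.3% to 40.0% of all genes). *Kmt2d* KO had 6 calls, 13 with the replicate block, 10 with DESeq2 and 10 from replicates 1 and 2 (32.7%, 27.1% and 35.9% of all genes). The knockouts of 67NR differed at 2 members, at 0 under an adjusted p of 0.05, total counts or no filter, at 7 with the block, 4 with DESeq2 and 8 from replicates 1 and 2 (7.29%, 4.10% and 12.6% of all genes), and at 0 to 2 with 1 library left out. WT lines differed at 12 members, 22 with the block and 22 from replicates 1 and 2 (48.5% and 54.3% of all genes). The interaction gave 5 for *Kmt2c* KO, 17 with the block and 13 from replicates 1 and 2, and 3 for *Kmt2d* KO, 11 and 12. Over all genes the block called 34.6% and 28.4%, and replicates 1 and 2 called 38.0% and 32.5%. The members with replicate 3 outside the other libraries in 67NR were 10, and 22 without WT (49.3% of all genes). The cause of these moves was not tested. Scaling by total counts moved the median log2 fold change of all genes for 67NR *Kmt2d* KO from -0.02 to -0.21, and the share of calls that were higher from 54.6% to 40.0%. For the *Kmt2c* KO interaction that share went from 52.9% to 65.7%, and between the 67NR knockouts from 90.7% to 80.5%. Depth limits *Eno2*, *Aldoc* and *Ldhb* in 168FARN, which lay near 0.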
